A study of Rattus norvegicus with 4 samples.

Results

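The neuronal cytoskeleton and growth genes examined here were Dcx, Tubb3, Tubb2b, Tuba1a, Stmn1, Stmn2, Gap43, Map1b, Map2 and Mapt. Most of them are used as labels of young neurons or of growing neurites. They were taken by gene symbol from the expression files, and all 10 were found, 1 transcript for each symbol, among the 16182 transcripts listed in all 4 libraries. The samples were frontal cortex (the study's methods name the prefrontal cortex, with the meninges removed) of rat pups labelled as Wistar, postnatal day 1. The study's methods name the strain Wistar Furth and give a range of days that begins there. The dams received bisphenol A (BPA, a plasticizer monomer with estrogenic activity) at 5000 µg per kg of maternal body weight, or the vehicle alone, every day by oral gavage from gestational day 1 until they gave birth. Males and females of each treatment gave 1 library per sex. The study describes several pups per sex and treatment, and whether a library pooled them is not stated. Within a sex, 1 library therefore stood against 1 with no replicate check.

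Microtubules are polymers of alpha and beta tubulin, and a neuron that migrates or extends an axon must assemble, bundle and remodel them continuously. Doublecortin and the microtubule-associated proteins bind and stabilize the polymer, stathmins bind free tubulin dimers and promote disassembly, and GAP-43 acts on actin at the membrane of the growth cone. In the newborn cortex, most neurons are at the stage of migration and neurite extension, and these transcripts are among the most abundant in the tissue.

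The values are FPKM, fragments normalized for the length of the transcript and for the depth of the library, so that levels of different genes can be set side by side per length. From the steps between low FPKM values, the depth was estimated as 9248500 fragments in the control male, 9157500 in the BPA male, 8935750 in the control female and 8948000 in the BPA female library. Eif2s3y, a Y-linked gene, was at 52.8 and 47.2 FPKM in the control and BPA male libraries and at 0.01 and 0.07 FPKM in the control and BPA female libraries. The libraries thus matched their labelled sex on this gene.

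All 10 genes were highly expressed in every library. Together they made up 4.71% of the summed FPKM in the control male, 5.30% in the BPA male, 4.68% in the control female and 5.25% in the BPA female library. The BPA library was thus the higher one in each sex, and the combined share of the control libraries differed little between the sexes. Tuba1a was the most abundant transcript of all in each library, with 2.12%, 2.42%, 2.11% and 2.37% of the summed FPKM in the same order. Among the 26 transcripts with a mean of at least 1000 FPKM were 5 of the genes, Tuba1a, Tubb2b, Stmn1, Tubb3 and Stmn2. Map2 was the lowest of the 10, and even this transcript lay at or above the 98.4th percentile of each library.

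**Figure D1:**
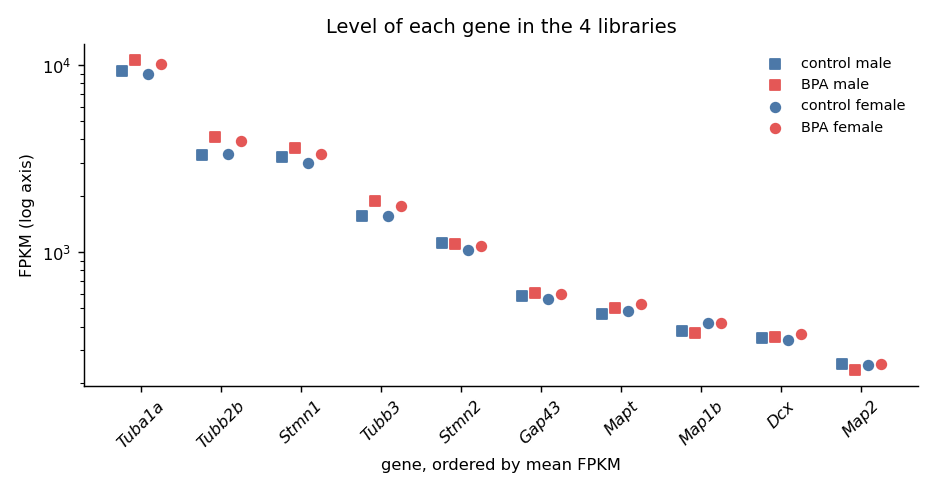
FPKM (log axis) of each gene in the male libraries (squares) and the female libraries (circles), control in blue and BPA in red, 1 point per library, with genes ordered by mean FPKM. Tuba1a lay highest at 8980 to 10707 FPKM and Map2 lowest at 234 to 253 FPKM, and for Tuba1a, Tubb2b, Stmn1 and Tubb3 both BPA points lay above both control points.

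The order of mean levels was Tuba1a, Tubb2b, Stmn1, Tubb3, Stmn2, Gap43, Mapt, Map1b, Dcx and Map2. Tubb2b and Stmn1 overlapped, at 3313 to 4137 and 2983 to 3596 FPKM over the 4 libraries. Map1b and Dcx did not overlap, at 367 to 416 and 339 to 365 FPKM, and all other neighbours in the order were also separate.

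The libraries were first compared for the tubulins, the subunits of the polymer. Tuba1a, the alpha-tubulin isotype that dominates in young neurons and is mutated in lissencephaly, was at 9243 FPKM in the control male, 10707 in the BPA male, 8980 in the control female and 10135 in the BPA female library. Both BPA libraries were above both controls, by 15.8% in males and 12.9% in females. The limma fit with the sexes combined gave a log2 ratio of 0.19 with an SE of 0.109 and an adjusted p of 0.403. The male log2 ratio of 0.21 became 0.11 when libraries were centred on the median of transcripts with at least 200 FPKM, called abundant transcripts.

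Tubb2b, a beta-tubulin isotype of migrating neurons, showed the highest ratio of the 10 genes in both sexes. It was at 3313 and 4137 FPKM in the control and BPA male libraries, and at 3346 and 3943 FPKM in the control and BPA female libraries. The BPA library was thus higher by 24.9% in males and by 17.8% in females. Combined, the log2 ratio was 0.28 with an SE of 0.085, and the limma p of 0.0165 became 0.199 after Benjamini-Hochberg adjustment over all transcripts tested.

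Tubb3, the class III beta-tubulin largely restricted to neurons, was at 1569 FPKM in the control male, 1887 in the BPA male, 1552 in the control female and 1768 in the BPA female library. Both BPA libraries were again the higher, by 20.2% in males and 13.9% in females. The combined log2 ratio was 0.23 with an SE of 0.0743, and the limma p of 0.022 became 0.215 after adjustment. The male log2 ratio of 0.27 became 0.16 when libraries were centred on abundant transcripts.

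Stmn1, the ubiquitous stathmin that sequesters tubulin dimers, was the only gene outside the tubulins with a difference of more than 10% in both sexes. It was at 3235 and 3596 FPKM in the control and BPA male libraries and at 2983 and 3347 FPKM in the control and BPA female libraries. The groups did not overlap, and the BPA library was higher by 11.2% in males and 12.2% in females. The combined log2 ratio was 0.16 with an SE of 0.092 and an adjusted limma p of 0.414. Without the control female library it was 0.10, and the male ratio of 0.15 became 0.05 when libraries were centred on abundant transcripts.

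The second stathmin, Stmn2, which is neuron-specific and sits in growth cones, did not share that difference. Its FPKM was 1118 in the control male, 1110 in the BPA male, 1030 in the control female and 1072 in the BPA female library. The groups overlapped, and the library highest in Stmn2 was a control. The ratio of Stmn1 to Stmn2 was 2.89 in the control male and 2.90 in the control female library, and 3.24 and 3.12 in the BPA male and BPA female libraries. Both BPA ratios were above both control ratios.

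Because Tuba1a, Tubb2b, Tubb3 and Stmn1 were higher together, the 250 bases before their annotated starts are shown, from RefSeq on the assembly GRCr8. They lie at chr7:131995820-131996069 (minus strand), chr17:30952836-30953085 (plus strand), chr19:68365437-68365686 (plus strand) and chr5:151964929-151965178 (plus strand). Each is written 5′ to 3′ on the strand of the gene, with capitals marking every match on either strand to TATAA (core of the TATA box), CCAAT (bound by NF-Y) or GGGCGG (bound by Sp1).
Tuba1a: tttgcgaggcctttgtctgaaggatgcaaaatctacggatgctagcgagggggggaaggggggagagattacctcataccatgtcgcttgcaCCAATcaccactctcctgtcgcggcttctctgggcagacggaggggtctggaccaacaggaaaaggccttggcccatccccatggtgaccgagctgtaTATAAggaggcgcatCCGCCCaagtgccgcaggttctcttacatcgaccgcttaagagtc
Tubb2b: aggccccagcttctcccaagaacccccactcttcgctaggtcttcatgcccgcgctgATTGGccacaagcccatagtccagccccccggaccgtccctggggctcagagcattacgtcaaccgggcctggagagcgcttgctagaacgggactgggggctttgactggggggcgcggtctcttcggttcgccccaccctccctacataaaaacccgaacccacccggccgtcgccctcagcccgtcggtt
Tubb3: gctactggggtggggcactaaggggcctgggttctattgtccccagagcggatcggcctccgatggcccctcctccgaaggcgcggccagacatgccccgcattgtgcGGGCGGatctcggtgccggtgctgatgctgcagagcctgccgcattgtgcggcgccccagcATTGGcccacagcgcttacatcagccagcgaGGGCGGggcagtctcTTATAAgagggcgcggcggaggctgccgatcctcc
Stmn1: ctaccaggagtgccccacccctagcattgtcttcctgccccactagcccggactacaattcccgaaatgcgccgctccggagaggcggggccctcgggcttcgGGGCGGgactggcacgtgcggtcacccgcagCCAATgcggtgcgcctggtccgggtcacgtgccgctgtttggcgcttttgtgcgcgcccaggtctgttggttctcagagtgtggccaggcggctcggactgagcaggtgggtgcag
These 4 windows were chosen by the ratios of their genes. Each held 1 CCAAT match on either strand, and 34.0% of 33469 RefSeq promoter windows of the same length held at least 1. GGGCGG was present in Tuba1a, Tubb3 and Stmn1, against 30.5% of all windows. TATAA was present in Tuba1a and Tubb3, against 24% of all windows, and the Tubb3 match is a TTATAA that reads as TATAA on both strands. CANNTG, the E-box, was not capitalized and was present in Tuba1a and Stmn1, against 65.5% of all windows. Of the other 6 genes, Dcx, Map1b and Map2 had a window in the same table, and their windows held 0 CCAAT matches. Dcx is also among the genes with both BPA libraries above both controls, so a CCAAT match did not go with that pattern in each gene. A match is a description of letters and not evidence of binding.

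The microtubule-binding proteins varied more in direction. Mapt, which encodes the axonal protein tau, was at 464 FPKM in the control male, 500 in the BPA male, 485 in the control female and 531 in the BPA female library. Both BPA libraries were higher, by 7.73% in males and 9.48% in females, although the BPA male library lay close to the control female. The combined log2 ratio was 0.12 with an SE of 0.0636 and an adjusted limma p of 0.383. Without the BPA female library it was 0.08, and the male ratio of 0.11 became 0.005 when libraries were centred on abundant transcripts.

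Dcx, the doublecortin gene of migrating neurons, was at 348 and 353 FPKM in the control and BPA male libraries and at 339 and 365 FPKM in the control and BPA female libraries. The groups did not overlap, but the male difference of 1.46% was small beside the 7.79% in females and turned to a log2 ratio of -0.08 when libraries were centred on abundant transcripts. The counting interval of the male log2 ratio, -0.002 to 0.045, included 0, and that of the female ratio, 0.085 to 0.133, did not.

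Map1b, an early microtubule-associated protein of growing axons, differed more between the sexes than between treatments. It was at 378 and 367 FPKM in the control and BPA male libraries and at 416 and 415 FPKM in the control and BPA female libraries. Both female libraries were above both male libraries, with a female to male log2 ratio of 0.14 in controls and 0.18 in BPA libraries. BPA and control overlapped, and the male log2 ratio of -0.04 became 0.001 when libraries were centred on the median transcript.

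Map2, the dendritic microtubule-associated protein, was at 252 FPKM in the control male, 234 in the BPA male, 250 in the control female and 253 in the BPA female library. The BPA male library stood below the other 3, which lay within a range of a few FPKM. The log2 ratio was -0.105 in males and 0.014 in females. Combined, it was -0.05 with an SE of 0.0614, and 0.02 when centred on the median transcript.

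Gap43, the growth cone phosphoprotein, was at 580 and 602 FPKM in the control and BPA male libraries and at 561 and 596 FPKM in the control and BPA female libraries. Both BPA libraries were above both controls, by 3.8% in males and 6.32% in females. The male log2 ratio of 0.05 turned to -0.05 when libraries were centred on abundant transcripts, and the combined ratio of 0.07 had an adjusted limma p of 0.571.

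**Figure D2:**
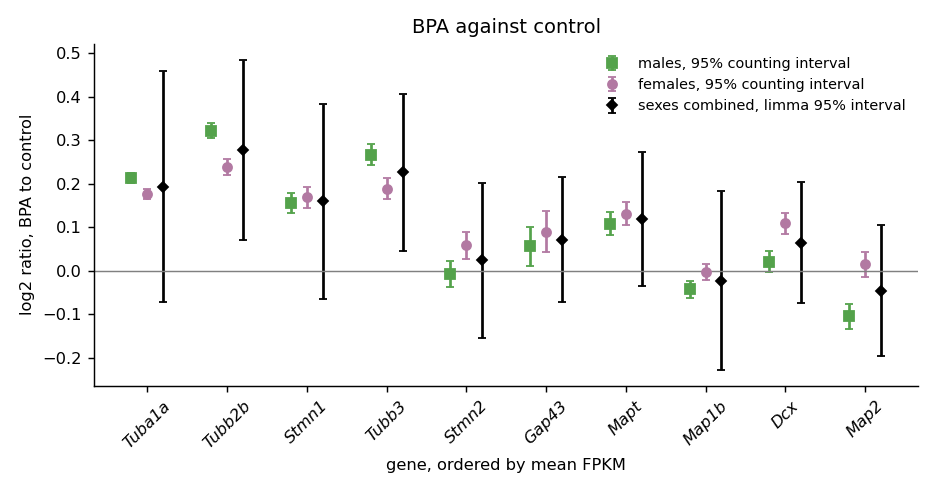
Log2 ratio of BPA to control for each gene, ordered by mean FPKM, in males (squares) and females (circles) with 95% intervals for counting error of the recovered fragments, and with the sexes combined (diamonds) with the 95% interval of limma. The combined intervals of Tubb2b, from 0.07 to 0.49, and Tubb3, from 0.05 to 0.41, lay above 0, and those of the other 8 genes included 0.

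Across the whole table, 13163 transcripts with a mean of at least 1 FPKM were tested with the sexes as replicates. At an adjusted p under 0.05, 0 of the 10 genes passed, and 2, Tubb2b and Tubb3, had an unadjusted p under 0.05. Of all transcripts tested, 0.106% passed as higher and 0.456% as lower in BPA, and 17.3% had an unadjusted p under 0.05. With sex as a term, 0 of the 10 passed and 5 (Tubb2b, Tubb3, Tuba1a, Stmn1 and Mapt) had an unadjusted p under 0.05, beside 19.6% of all transcripts. With no filter on low values, or without the control male or the control female library, 0 of the 10 had one, beside 16.2%, 12.1% and 10.8% of all transcripts.

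In 7 of the 10 genes (Dcx, Tubb3, Tubb2b, Tuba1a, Stmn1, Gap43 and Mapt) both BPA libraries were above both control libraries, and in 0 they were below. Over all transcripts tested, both BPA libraries were above in 18.7% and below in 31.9%. The median log2 ratio of the 10 genes was 0.08 in males and 0.12 in females, beside -0.04 in each sex over all transcripts. Centring on abundant transcripts left 4 of the 7 (Tubb3, Tubb2b, Tuba1a and Stmn1) and moved the male median to -0.02. Under the same centring Tubb2b passed the adjusted threshold (adjusted p = 0.0295 in limma), the only one of the 10 genes to do so, while 1.49% of all transcripts passed and both BPA libraries were above both controls in 11.3% of them.

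The differences were small. None of the 10 genes reached an absolute log2 ratio of 1 in either sex, whereas 3.07% of all transcripts did in males and 4.09% in females. A log2 ratio of at least 0.2 higher was found for Tubb3, Tubb2b and Tuba1a in males and for Tubb2b in females, where 15.7% and 13.7% of all transcripts had one. Lower by that much were 0 of the 10 in each sex, against 26.3% of all transcripts in males and 28.9% in females. These counts moved with the scaling. Centred on the median transcript, 3 genes in males and 5 in females were higher by that much, beside 20.2% and 22.9% of all transcripts. Centred on abundant transcripts, Tubb2b was the 1 gene higher in each sex, beside 8.58% and 13.5%, and Map2 was lower in males, beside 40.2%.

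The median absolute log2 ratio between the female and the male library of a treatment was 0.045 in controls and 0.082 in BPA over the 10 genes, beside 0.117 and 0.129 over all transcripts. For Stmn1 the female to male log2 ratio was -0.117 in controls and -0.104 in BPA libraries, smaller in size than its ratios of BPA to control. The counting intervals were narrower than the difference between the sexes for some genes, since the 10 genes were read by 7222 to 153255 fragments per library. For Tubb2b, the male log2 ratio had an interval of 0.305 to 0.339 and the female ratio one of 0.221 to 0.256. These intervals cover counting error only, and whether the ratio differs between males and females was not tested, since each sex has 1 library per treatment.

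How the genes moved relative to one another does not depend on how a library is scaled. Each gene was divided by the geometric mean of the other 9 in the same library. On this measure, Tubb2b was higher in BPA by a log2 ratio of 0.25 in males and 0.13 in females, and Tubb3 by 0.19 and 0.08. Map2 was lower, with -0.23 in males and -0.11 in females, and so was Map1b, with -0.16 and -0.13. Stmn2 was lower as well, with -0.12 and -0.065. Mapt was near 0 in both sexes, with 0.01 and 0.02.

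**Figure D3:**
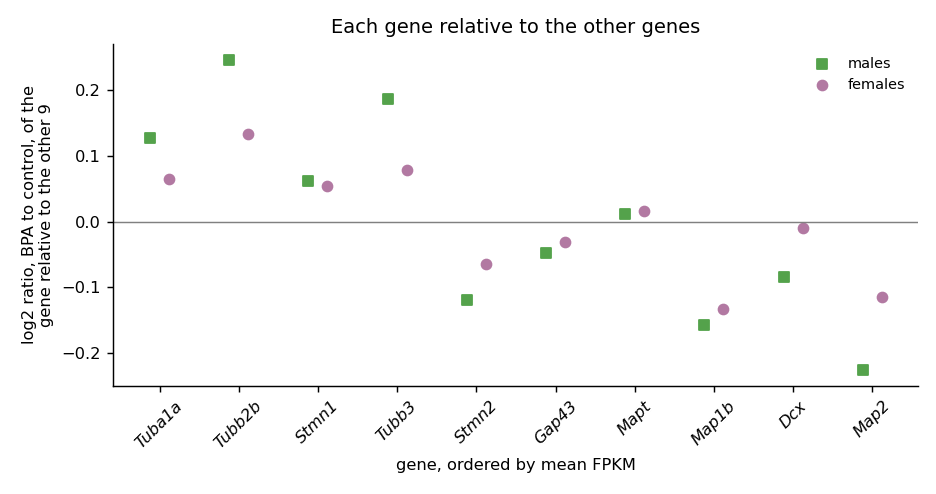
Log2 ratio of BPA to control for each gene after division by the geometric mean of the other 9 genes in the same library, in males (squares) and females (circles), with genes ordered by mean FPKM. Tuba1a, Tubb2b, Stmn1 and Tubb3 lay above 0 in both sexes, and Stmn2, Gap43, Map1b, Dcx and Map2 lay below 0 in both. A value below 0 means lower relative to the other 9 genes, and not that the FPKM itself fell.

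The ratio of Tubb3 to Map2, an early neuronal tubulin over a protein of maturing dendrites, was 6.23 in the control male and 6.21 in the control female library. It was 8.06 in the BPA male and 7.0 in the BPA female library, above both controls. The ratio of Mapt to Map2 was 1.84 and 1.94 in the control male and female libraries and 2.14 and 2.10 in the BPA male and female libraries. Dcx to Map2 was also higher in both BPA libraries, at 1.51 in males and 1.45 in females, against 1.38 and 1.36 in the controls. The ratio of Map1b to Map2 did not separate, at 1.5 and 1.66 in the control male and female libraries and 1.57 and 1.64 in the BPA libraries. These ratios share Map2 as their denominator and are not separate observations. Map2 was lowest in the BPA male library, which raises every ratio of that library.

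Transcript length and abundance varied with the ratios. The 6 genes with transcripts under 2000 bases had a median log2 ratio of 0.18 in males and 0.17 in females, and the 4 genes with transcripts of at least 5000 bases (Dcx, Map1b, Map2 and Mapt) had medians of -0.01 and 0.06. Among all transcripts with a mean of at least 100 FPKM, those of 1000 to 2000 bases had medians of 0.03 in each sex, and those of at least 5000 bases had -0.05 in males and 0.01 in females. RNA integrity values per library were not used here, and the part of length in these ratios was not tested.

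Other abundant transcripts also had ratios above 0 on the median. The 21 other transcripts with a mean of at least 1000 FPKM had a median log2 ratio of 0.16 in males and 0.07 in females, and in 57.1% of them both BPA libraries were above both controls. The 5 genes of the same range had medians of 0.21 and 0.175. The 265 other transcripts with a mean of 200 to 1000 FPKM had medians of 0.08 and 0.03, beside 0.02 and 0.09 for the 5 genes in that range. The part of abundance in the ratios was not tested.

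**Figure D4:**
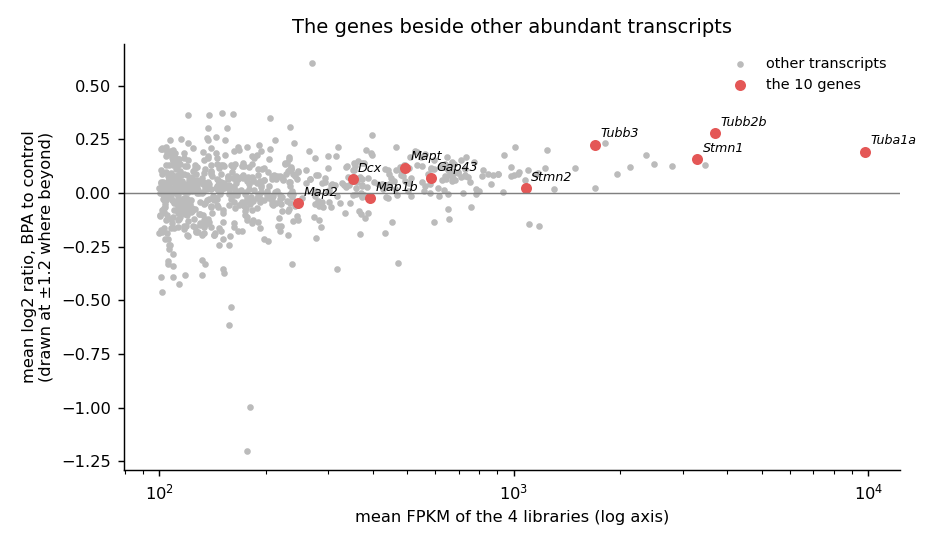
Mean of the male and female log2 ratios of BPA to control against the mean FPKM of the 4 libraries (log axis) for the 10 genes (red, named) and 726 other transcripts with a mean of at least 100 FPKM (grey), with 1 other transcript beyond 1.2 drawn at that limit. Tubb2b lay at 0.28 and Tubb3 at 0.23, and Map2 and Map1b lay just below 0.

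Tubulin isotypes are nearly identical in their coding sequence, so the division of fragments among them is uncertain, and they were also summed. Tuba1a, Tuba1b and Tuba1c together were at 10564 and 12058 FPKM in the control and BPA male libraries and at 10256 and 11424 FPKM in the control and BPA female libraries, higher by 14.1% in males and 11.4% in females. The summed 7 beta tubulins were higher by 21.1% in males and 13.6% in females, and Tubb2a with Tubb2b by 21.6% and 14.6%. These sums stayed above 0 on the log2 scale in both sexes under each scaling of the libraries. Centred on abundant transcripts, the male log2 ratio went from 0.19 to 0.09 for Tuba1a, Tuba1b and Tuba1c together, from 0.28 to 0.175 for the beta tubulins and from 0.28 to 0.18 for Tubb2a with Tubb2b. Tuba1b, a widely expressed alpha-tubulin, went the other way, at 695 and 640 FPKM in the control and BPA male libraries and 677 and 624 FPKM in the control and BPA female libraries. The summed 4 stathmins had log2 ratios of 0.10 in males and 0.12 in females, and 0.000 and 0.12 when centred on abundant transcripts.

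Other genes of the neuronal cytoskeleton were read from 6 lists with 67 transcripts tested. Of these, 0 passed the adjusted threshold in either direction, the smallest adjusted p was 0.133, and 12 (17.9%) had an unadjusted p under 0.05, beside 17.3% of all transcripts. Both BPA libraries were above both controls in 21 of the 67 and below in 15, which is 31.3% and 22.4%, beside 18.7% and 31.9% of all transcripts. Their median log2 ratio was 0.02. Centred on abundant transcripts, 10 of the 67 (14.9%) were above and 21 (31.3%) below, beside 11.3% and 38.1% of all transcripts, and the median was -0.03.

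Among the other tubulins, 4 of 9 tested were above and 3 below, and 3 and 4 when centred on abundant transcripts. Tubb5, a beta-tubulin of proliferating and young cells and the most abundant of them, was at 1646 and 2020 FPKM in the control and BPA male libraries and at 1681 and 1889 FPKM in the control and BPA female libraries, with a combined log2 ratio of 0.23 and an adjusted p of 0.215 in limma. Tuba4a, an alpha-tubulin of mature axons, had the lowest ratio, at 14.5 and 7.15 FPKM in the control and BPA male libraries and 16.8 and 11.5 FPKM in the control and BPA female libraries (adjusted p = 0.179).

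Of the collapsin response mediators and growth cone proteins, 9 of 16 were above and 0 below, and their median log2 ratio was 0.10. Centred on abundant transcripts, 5 were above and 2 below, with a median of 0.04. Marcksl1, an actin-binding protein kinase C substrate, had the highest, at 926 and 1121 FPKM in the control and BPA male libraries and 938 and 1045 FPKM in the control and BPA female libraries (adjusted p = 0.21 in limma). Tmsb10, an actin monomer binder and the most abundant of the list, was at 2489 and 2775 FPKM in males and 2248 and 2438 FPKM in females, control first. Marcks, the related substrate, had the lowest ratio, at 96.2 and 99.8 FPKM in males and 96.7 and 86.3 FPKM in females.

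The other stathmins, Dclk genes and microtubule-associated proteins were mixed, with 4 of 17 above and 5 below and a median log2 ratio of 0.03. Centred on abundant transcripts, 0 were above and 6 below, with a median of -0.025. Camsap1, which binds microtubule minus ends, had the highest ratio, at 43.2 and 45.9 FPKM in the control and BPA male libraries and 41.9 and 51.55 FPKM in the control and BPA female libraries (adjusted p = 0.275 in limma). Map7, which recruits kinesin, had the lowest, at 1.94 and 1.83 FPKM in males and 2.89 and 1.24 FPKM in females, control first. Stmn3, the most abundant of the list, was at 328 and 354 FPKM in males and 315 and 312 FPKM in females, control first, and so overlapped.

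Of the lissencephaly and motor genes, 3 of 10 were above and 4 below, with a median log2 ratio of -0.03, and 1 and 4 when centred on abundant transcripts, with a median of -0.09. Ndel1 and Nde1, paralogous partners of dynein, had the highest and the lowest ratio, with Ndel1 at 23.99 and 26.4 FPKM in the control and BPA male libraries and 21.8 and 24.4 FPKM in the control and BPA female libraries. Nde1 was at 3.35 and 2.55 FPKM in males and 3.41 and 2.95 FPKM in females, control first. The neuronal kinesin Kif5c, the most abundant, was at 194 and 196 FPKM in males and 192 and 207 FPKM in females.

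The tubulin folding and modification genes had 1 of 8 above and 0 below, with a median of 0.03, and 1 and 2 when centred on abundant transcripts, with a median of -0.02. Tbce, a tubulin cofactor, was at 31.7 and 36.5 FPKM in the control and BPA male libraries and 27.97 and 30.05 FPKM in the control and BPA female libraries, the highest ratio of the list. Tbcb had the lowest, at 98.5 and 101 FPKM in males and 95.5 and 93.3 FPKM in females, and Tbca, the most abundant, was at 179 and 186 FPKM in males and 178 and 176 FPKM in females.

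Intermediate filament genes had 0 of 7 above and 3 below, with a median of -0.39. Centred on abundant transcripts, 0 were above and 3 below, with a median of -0.44. Gfap, of astrocytes, had the lowest ratio, at 7.54 and 4.89 FPKM in the control and BPA male libraries and 6.87 and 3.69 FPKM in the control and BPA female libraries (adjusted p = 0.133 in limma). Vim, of radial glia and mesenchymal cells, was at 122 and 107 FPKM in males and 126 and 83.5 FPKM in females. Nefm, a neurofilament of maturing axons, had the highest ratio and overlapped, at 42.5 and 40.0 FPKM in males and 44.3 and 44.97 FPKM in females. Nefl, another neurofilament, was below in both BPA libraries (adjusted p = 0.154 in limma). It was at 27.65 and 17.68 FPKM in males and 26.25 and 22.0 FPKM in females, control first.

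**Figure D5:**
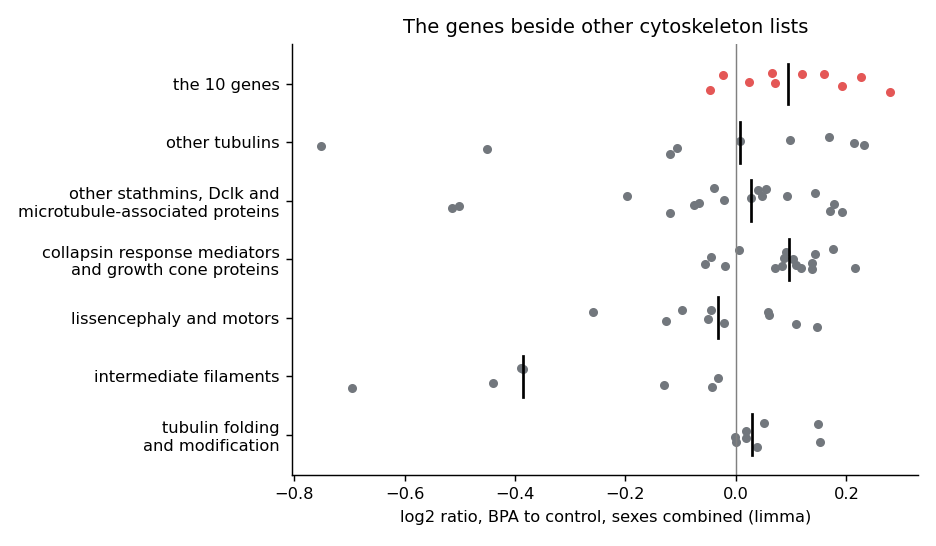
Combined log2 ratio of BPA to control from limma for the 10 genes (red) and for the tested genes of 6 other cytoskeleton lists (grey), 1 point per gene, with the median of each list as a vertical line and points spread vertically for legibility. The median of the 10 genes was 0.095, beside 0.097 for the collapsin response mediators and growth cone proteins, and that of the intermediate filaments was -0.39.

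In whole tissue, fewer cells of a type and less RNA per cell cannot be told apart, and markers of other cells moved with the treatment. All 10 markers of meninges and vessel wall were below in both BPA libraries and 7 passed the adjusted threshold as lower, with a summed level of 470 and 616 FPKM in the control male and female libraries and 214 and 147 FPKM in the BPA male and female libraries. Ptgds, the most abundant of them, was at 214 and 109 FPKM in males and 320 and 66.9 FPKM in females, control first. Of 10 striatal markers, 9 were above, with a summed level of 94.7 and 97.8 FPKM in controls and 145 and 157 FPKM in BPA, male first. Over all transcripts tested, 18.7% were above and 31.9% below, and 0.106% passed as higher and 0.456% as lower. Rxrg and Penk passed as higher (adjusted p = 0.0253 and 0.046 in limma), and were named after their values were seen, as were the next 3.

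Cdhr1, of olfactory bulb projection neurons, passed as lower (adjusted p = 0.00834 in limma), and its list had 0 above and 2 below of 3 tested. Slc17a7, a vesicular glutamate transporter of excitatory neurons, also passed as lower (adjusted p = 0.0274 in limma), while its list had 2 above and 1 below of 6 tested. Of the other markers of immature neurons, 5 of 9 were above and 2 below, with a median log2 ratio of 0.12. Over all transcripts tested, 18.7% were above and 31.9% below. Neurod2 passed as higher (adjusted p = 0.0481 in limma). The 2 below were Neurod1 and Elavl4, with combined log2 ratios of -0.25 and -0.21. Of the 9, 4 had an unadjusted p under 0.05, Neurod1 and Elavl4 among them, beside 17.3% of all transcripts. Cd24, the most abundant of the 9, was at 505 and 556 FPKM in males and 459 and 526 FPKM in females, control first. Of 10 markers of mature neurons, 1 was above and 7 below, beside 18.7% and 31.9% of all transcripts, with a median of -0.18. Among the 10, 0 passed and 5 had an unadjusted p under 0.05, beside 17.3% of all transcripts.

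In the remaining marker lists, 0 genes passed in limma, while 19 of 54 tested (35.2%) had an unadjusted p under 0.05, beside 17.3% of all transcripts. Medians were -0.17 for radial glia and progenitors, -0.33 for astrocytes and -0.38 for endothelium, with 4 of 9, 4 of 6 and 3 of 5 genes below. They were -0.07 for proliferation and for the oligodendrocyte lineage, -0.10 for interneurons, -0.23 for microglia and -0.30 for blood. In the same order, 2 of 8, 3 of 7, 3 of 8, 3 of 6 and 2 of 5 genes of these lists were below. Over all transcripts tested, 31.9% were below and the median was -0.04. The 5 listed choroid plexus markers had a mean under 1 FPKM and were not tested. With no filter on low values, with no variance trend, or without the BPA male or the BPA female library, 0 transcripts of the whole table passed in limma, so none of the marker genes that passed did so under those settings. The part of tissue composition in the differences of the 10 genes was not tested.

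The annotation deposited with the values tied most of the genes to the microtubule. The genes were chosen as cytoskeleton and growth genes, so a higher share of such terms than over all transcripts was built in. The term microtubule depolymerization was carried by 5 of the 10 (Map1b, Map2, Mapt, Stmn1 and Stmn2), against 0.153% of 13033 annotated transcripts, and neuron projection by 5 (Dcx, Gap43, Map1b, Stmn2 and Tubb3), against 2.25%. The genes that oppose assembly and those that stabilize it share the depolymerization term, and within it the BPA to control ratios differed, with both libraries above for Mapt and Stmn1 and overlapping for Map1b, Map2 and Stmn2.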

How the data were processed

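Polyadenylated RNA from 4 libraries, 1 per sex and treatment, was sequenced on an Illumina instrument. The submitters' processing notes name HISAT, Bowtie2 and RSEM and the build rn6, with versions not given in the sources used here. The authors deposited FPKM, normalized by them for transcript length and depth, with 2 decimals and 0.01 as the lowest value. The files hold no counts. Fragments were recovered from the FPKM steps, with 87.0% to 89.6% of scarce values within 0.1 of a whole number (20.0% by chance), and their exact binomial 95% intervals hold counting error alone.

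Log2 ratios were taken of FPKM + 0.5, a scale that understates changes of low genes. The sexes served as replicates in limma 3.58.1 (R 4.3.3) with treatment as the only term, a variance trend, 2 residual degrees of freedom and Benjamini-Hochberg adjustment over 13163 transcripts with a mean of at least 1 FPKM. P-values measure the spread between these libraries, which includes sex. On simulated data for this comparison, 186 of 200 transcripts changed by a log2 ratio of 2 were called, and 15 unchanged ones. That change is far larger than the differences of the neuronal cytoskeleton and growth genes, where the highest combined log2 ratio was 0.28, for Tubb2b. How often changes of that smaller size would be called was not tested. "Passed" means an adjusted p under 0.05. Other work used Python 3.11.15, numpy 2.4.6, pandas 2.3.3, scipy 1.17.1 and matplotlib 3.10.9.

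The 10 genes and all lists were chosen with earlier results of these data known. In each cytoskeleton list the genes with the highest and lowest combined ratio and the most abundant one were named. In marker lists the most abundant one was named, where the text gives an example. Nefl, Neurod1 and Elavl4 were named in addition, since both BPA libraries were below both controls. Promoter windows were found for 7 of the 10 genes. Alternatives were other pseudocounts, filters, scalings, a sex term and leaving out each library. Tests of counts were not run.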

Additional observations from a re-analysis of the deposited data

Results flagged for a closer look

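Stmn2 and Map2 stood out because the male and the female pair had log2 ratios of opposite sign. For Stmn2 the log2 ratio of BPA to control was -0.009 in males and 0.057 in females, and for Map2 it was -0.105 in males and 0.014 in females. The difference between the sexes was not tested, since each sex has 1 library per treatment. By counting error alone, the male interval of Map2, from -0.134 to -0.076, and the female interval, from -0.014 to 0.044, did not overlap. Those of Stmn2, from -0.037 to 0.022 and from 0.028 to 0.090, did not overlap either. The male interval of Stmn2 and the female interval of Map2 included 0. The opposite signs of Stmn2 were not seen under 2 other scalings, with 0.035 in males and 0.141 in females when centred on the median transcript, and 0.014 and 0.073 when scaled by the upper quartile.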

How the results depend on the processing

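The median log2 ratio of the 10 genes was 0.081 in males, 0.119 in females and 0.095 combined. Centring on the median transcript gave 0.125, 0.203 and 0.159, while centring on transcripts of at least 200 FPKM (chosen after seeing the data) gave -0.022 in males and 0.043 combined, left 4 of 7 genes with both BPA libraries above both controls, and let 1 gene (Tubb2b) pass (adjusted p = 0.0295). Under every other setting 0 of the 10 genes passed, and the adjusted p of Tubb2b ranged from 0.0544 to 0.631 there. The 7 genes with both BPA libraries above kept that position under each other setting in which it was computed. Single genes reversed sign as follows. With centring on abundant transcripts, Gap43 gave -0.049 and Dcx -0.082 in males, and Stmn2 combined -0.028. With centring on the median transcript, Map1b gave 0.001 in males, 0.081 in females and 0.041 combined, Map2 0.018 combined, and Stmn2 0.035 in males. With scaling by the upper quartile, Stmn2 gave 0.014 in males and Map1b 0.013 in females. Without the BPA male library the combined ratio was 0.066 for Map1b, 0.009 for Map2 and -0.002 for Stmn2, and without the control female library it was 0.046 for Map1b and -0.035 for Stmn2. The cause was not tested. Over the settings that leave out 1 library, the combined ratio ranged from -0.112 to 0.066 for Map1b, from -0.100 to 0.009 for Map2, from -0.035 to 0.083 for Stmn2, from 0.041 to 0.088 for Dcx, from 0.047 to 0.095 for Gap43, from 0.077 to 0.162 for Mapt and from 0.101 to 0.218 for Stmn1. Leaving out each library in turn gave combined medians of 0.074 to 0.098 and 0 genes passed, with the lone library assumed to vary like the others. Adding sex as a term, which pairs the libraries of a sex as a replicate block and leaves 1 residual degree of freedom, gave a median of 0.095 and 0 of the 10 passed, with 5 at an unadjusted p under 0.05, beside 19.6% of all transcripts. That count was 2 in the fit as reported, 4 with centring on abundant transcripts, 3 with centring on the median transcript, 1 with no variance trend or without the BPA male library, and 0 with no filter, without the control male or without the control female library.

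Over all transcripts, 74 passed (14 higher). This count was 24 with a pseudocount of 0.01, 104 with 5, 206 at a mean of at least 10 FPKM, 477 among transcripts with a Gene ID, 196 with centring on abundant transcripts, 0 with no filter or no variance trend, and 0 to 6 without 1 library. Without the control male library 3 passed (2 higher), without the control female library 6 (5 higher), and without the BPA male or the BPA female library 0. The counting error of the 10 genes in the BPA libraries was at most 1.10%, with 1 library per sex and treatment. The part of depth in how many genes passed was not tested.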
